A study of Mus musculus with 97 samples.

Results

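Jejuna of mice injected with tryptophan alone were compared with jejuna of mice injected with the vehicle, gene by gene. The libraries were chosen by their labels, as the 8 titled Tryptophan and the 8 titled Control of the fourth experimental batch, and make up 16 of the 97 libraries of the series and 16 of its 38 jejuna. All were female C57BL/6 mice, 11 weeks old, that had eaten normal chow for 3 weeks. In the last of those weeks the tryptophan mice were injected intraperitoneally each day with 50 mg/kg of tryptophan in phosphate-buffered saline (PBS), and the control mice with PBS. Both groups therefore shared the daily injection and the chow, and differed in the injected amino acid. Each library came from a different animal. A further pair of groups of the same experiment enters later, naproxen plus tryptophan (7 jejuna) and naproxen (7 jejuna), in which the chow held naproxen at 1323 ppm and the injection was tryptophan or PBS. Naproxen inhibits both cyclooxygenases, the enzymes that start prostaglandin synthesis. The other 8 jejuna, of mice given celecoxib at 550 ppm, are not compared here. They entered the fit, and with it the count filter, the batch terms and the estimate of spread. A separate cohort of females of the same strain and age, on normal chow, gave hearts of 8 tryptophan and 8 control mice. Labels give 4 dissection batches, which entered the model as a block.

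Tryptophan is an essential amino acid that the small intestine takes up through neutral amino acid transporters of the brush border. In tissues most of it is broken down along the kynurenine pathway, which opens with Ido1, Ido2 or Tdo2 and ends in nicotinamide adenine dinucleotide (NAD). In the gut a smaller share is hydroxylated by Tph1 in enterochromaffin cells, an enteroendocrine cell type, and becomes serotonin. Kynurenines, and the indoles that gut bacteria make from tryptophan, are ligands of the aryl hydrocarbon receptor, which is known to maintain lymphocytes of the intestinal epithelium. Those intraepithelial lymphocytes are largely cytotoxic T cells that carry granzymes. An injected dose reaches the jejunum through the blood, whereas dietary tryptophan reaches it from the lumen.

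RNA was taken from a piece of flushed, chopped jejunum, so that epithelium, immune cells, stroma and muscle were measured together, and was depleted of ribosomal RNA before sequencing, because its integrity was low per the labels' protocols. The libraries held 13548687 to 28537536 estimated counts in the tryptophan group and 12152612 to 26915195 in the control group. Depth, genes detected, the mitochondrial share of counts and the share of the most abundant gene were among 6 library measures compared by an exact two-sided permutation test within dissection batch, whose unadjusted p ran from 0.199 to 0.9815 and whose lowest adjusted p was 0.821 (n = 8 each). Fabp6, the ileal bile acid-binding protein and a marker of distal small intestine, set 4 libraries apart. It was measured at 1743, 1159 and 5523 CPM (counts scaled to library size) in tryptophan replicates 1, 2 and 8 and at 2556 CPM in control replicate 1. In the other 12 libraries it lay at or below 17.9 CPM. The summed level of the 10 proximal markers was 2419 to 9456 CPM in tryptophan jejuna and 2262 to 6710 CPM in control jejuna, lowest in the same 4 libraries. B cell transcripts were also uneven. The summed level of the B cell and lymphoid follicle list was 197, 152 and 86.8 CPM in tryptophan replicates 1, 2 and 8 and 9.10 to 18.7 CPM in the other 5, against 263 CPM in control replicate 5, 48.3 and 45.8 CPM in control replicates 1 and 7, and 12.9 to 19.7 CPM in the other 5. The first principal component of the 16 libraries took 31.6% of the variance, of which group accounted for 2.18% and dissection batch for 36.3%. For tryptophan against control, the lists and genes described below whose count or p moved across an unadjusted 0.05 without the 4 Fabp6-high libraries are given both ways. The fit without them kept tryptophan replicates 3 to 7 and control replicates 2 to 8. Tryptophan replicates 1 and 2 were the only ones of dissection batch 2, so tryptophan and control could no longer be compared within it. In dissection batch 1 tryptophan replicate 4 alone then stood against control replicates 7 and 8.

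**Figure D1:**
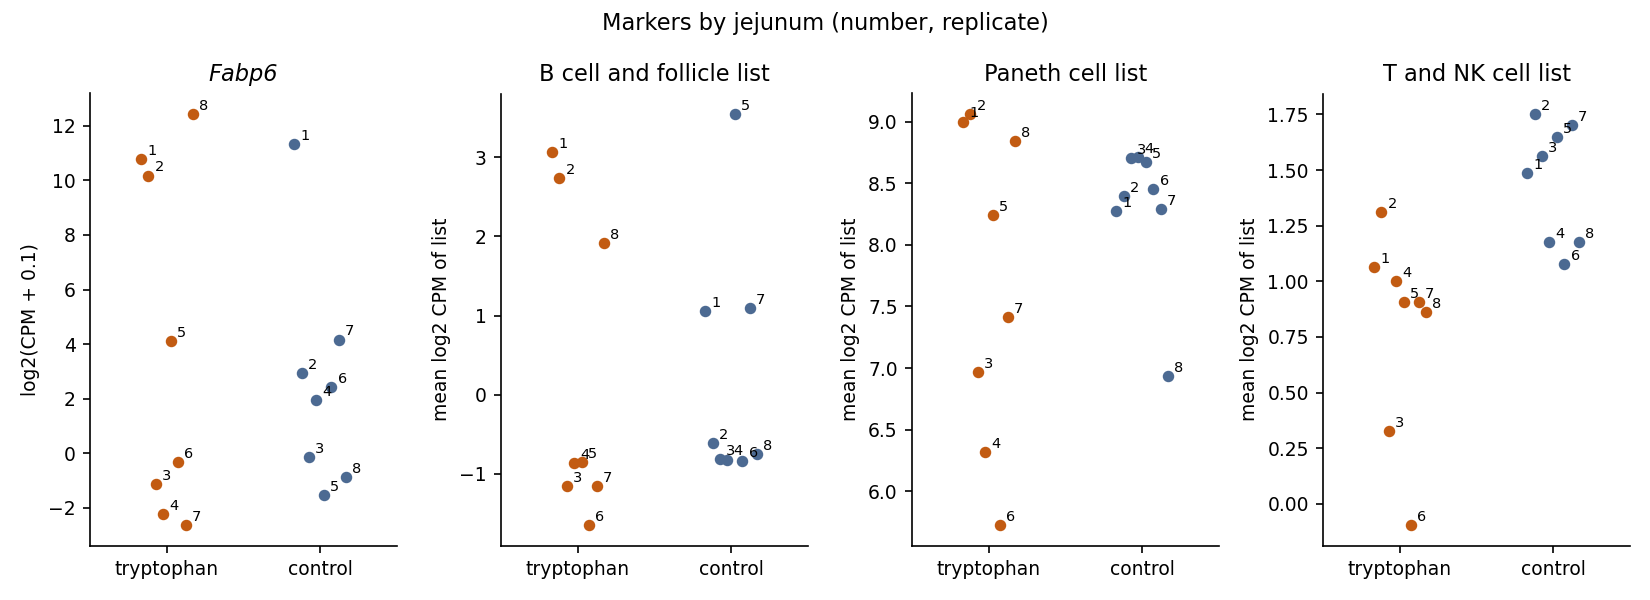
Level of Fabp6 as log2(CPM + 0.1) and mean log2 CPM of 3 cell type lists (vertical axes) in the 8 tryptophan jejuna, left, and the 8 control jejuna, right; each point is a library and its number the replicate. Fabp6 is high in tryptophan replicates 1, 2 and 8 and control replicate 1, the B cell list is highest in control replicate 5 and tryptophan replicates 1, 2 and 8, and the T and NK cell list is low in tryptophan replicates 3 and 6.

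Across all expressed genes the tryptophan injections left no gene that passed the test. Of 17185 tested genes, 0 were called by edgeR's quasi-likelihood test at an adjusted p of 0.05 (0%), and the lowest adjusted p was 0.999. At an unadjusted p below 0.05 stood 456 genes (2.65%), 195 of them higher (1.13%) and 261 lower (1.52%) in tryptophan jejuna. With DESeq2 the count called was also 0, and 522 genes were below an unadjusted 0.05. By contrast, edgeR with no filter on low counts called 253 of 32343 genes, 193 of them lower. There the median prior degrees of freedom, the weight given to a spread shared across genes, were infinite, against 3.71 in the reported fit. A filter of 10 counts over the 38 libraries gave 0 called genes. The median log2 fold change over all genes was -0.003, with 50.7% of genes below 0. For the 15176 genes at 1 CPM or above the median standard error of the log2 fold change was 0.15, and for 91.7% of them the whole 95% interval lay within 1 on the log2 scale in either direction. The 8 and 8 values did not overlap for 1 gene, Fut2 (0.00582% of those tested), a fucosyltransferase that decorates epithelial surfaces, singled out after its values were seen. Fut2 ran from 0.639 over a median of 0.844 to 1.53 CPM in tryptophan jejuna and from 0.270 over 0.492 to 0.586 CPM in control jejuna, a log2 fold change of 0.92 (SE 0.35) with an unadjusted p of 0.0128, and of 0.83 with an unadjusted p of 0.0672 without the 4 Fabp6-high libraries. Since no gene passed the threshold, the differences that follow are values and not calls.

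The enzymes that break tryptophan down did not pass the test. Of 20 listed genes of the kynurenine pathway and NAD synthesis, 16 were expressed enough to be tested, 7 of them with a positive and 9 with a negative log2 fold change, and 0 were below an unadjusted 0.05. Ido1, which opens the pathway and is induced by interferon gamma, ran from 12.2 over a median of 19.4 to 41.9 CPM in tryptophan jejuna and from 20.3 over 24.1 to 40.2 CPM in control jejuna. Tryptophan replicates 1, 3, 4 and 8 lay below every control, yet tryptophan replicate 5 lay above them all. The log2 fold change of Ido1 was -0.27 (95% interval -0.92 to 0.38). Kmo, which hydroxylates kynurenine, ran from 1.56 over 4.41 to 8.26 CPM in tryptophan jejuna and from 1.54 over 6.26 to 9.90 CPM in control jejuna, with a log2 fold change of -0.46 (-1.01 to 0.09). Kynu, which cleaves kynurenines, had a log2 fold change of -0.38 (-0.91 to 0.14). With the 4 Fabp6-high libraries left out 1 of the 16 was higher (Got2, an aminotransferase, 0.32) and 2 were lower at an unadjusted p below 0.05, Kmo and Haao (-1.33), which acts late in the pathway. Of all 17341 genes tested in that fit 260 were higher and 468 (2.7%) lower. Kmo then stood at -0.78 and Kynu at -0.62 on the log2 scale, with unadjusted p of 0.0258 and 0.0571. Tdo2 and Ido2, the other enzymes of the first step, were below the count filter, as were Acmsd and Aadat. Ido2 had at most 11 and Tdo2 at most 14 estimated counts in any of the 16 libraries.

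Most serotonin genes had small differences between the groups. Of 13 listed genes for serotonin synthesis, uptake and breakdown, 10 were tested, 6 with a positive and 4 with a negative log2 fold change, and 0 were below an unadjusted 0.05. Tph1, the rate-limiting hydroxylase of enterochromaffin cells, ran from 3.66 over 6.85 to 13.2 CPM in tryptophan jejuna and from 2.48 over 7.21 to 12.8 CPM in control jejuna. Its log2 fold change was 0.02 (95% interval -0.49 to 0.53). Ddc, the decarboxylase that completes serotonin, had a log2 fold change of 0.17 (-0.40 to 0.73). Slc6a4, the serotonin transporter of the epithelium, had one of -0.08 (-0.45 to 0.30), and Maoa, which degrades serotonin, one of -0.05 (-0.46 to 0.37). Chga, a granule protein carried by enteroendocrine cells, differed by 0.11 (-0.21 to 0.43). Inmt, an amine methyltransferase, differed by -0.80 with a wide interval (-2.04 to 0.45), and Sult1a1, a sulfotransferase, by -0.39 (-0.83 to 0.05). Leaving Inmt aside, the 95% interval of the other 9 tested genes lay within 1 on the log2 scale. The neuronal hydroxylase Tph2 was below the count filter.

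Genes that carry tryptophan had small differences as well, and receptors that sense amino acids and indoles had wider intervals. Of 23 listed transporters of tryptophan and other neutral amino acids 20 were tested, 10 positive and 10 negative, with 0 below an unadjusted 0.05, and the 95% interval of all 20 lay within 1 on the log2 scale. Slc6a19, the main brush-border transporter of neutral amino acids, ran from 629 over 1062 to 1512 CPM in tryptophan jejuna and from 637 over 1204 to 1681 CPM in control jejuna, with a log2 fold change of -0.06 (-0.46 to 0.34). Slc7a5, a basolateral exchanger of large neutral amino acids, differed by -0.07 (-0.40 to 0.26), and Slc6a20a, an imino acid transporter, by 0.24 (-0.22 to 0.70). Gpr35, a receptor for which kynurenic acid is a reported ligand, differed by 0.22 (-0.05 to 0.49). Of 11 listed receptors for amino acids, indoles and other gut metabolites 7 were tested, 5 positive and 2 negative, with a median of 0.21 and 0 below an unadjusted 0.05, and the interval of 4 of the 7 lay within 1. The lowest was Hcar2, a receptor for niacin and butyrate, at -0.68 (-1.71 to 0.36), and the highest Gpbar1, a bile acid receptor, at 0.45 (-0.89 to 1.78). Without the 4 Fabp6-high libraries the median was -0.08 and Hcar2 stood at -1.43, with an unadjusted p of 0.041.

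**Figure D2:**
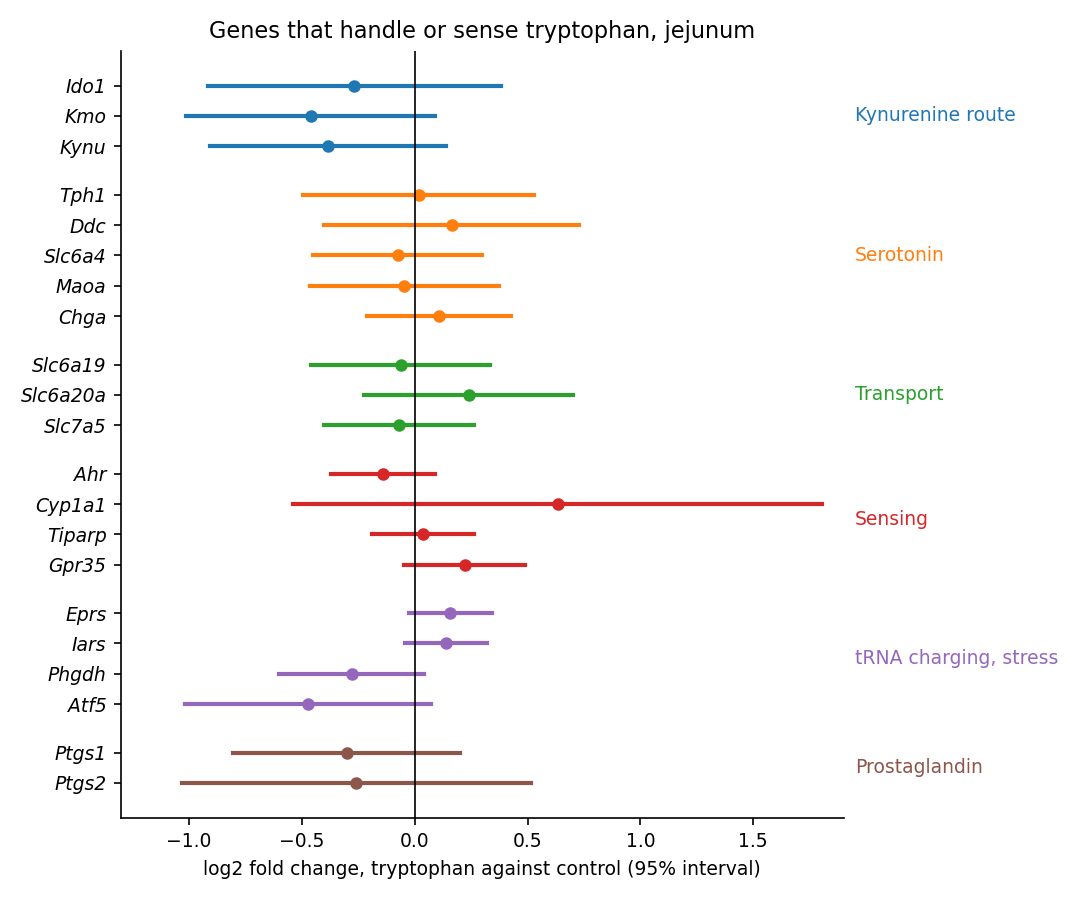
Log2 fold change of tryptophan against control (horizontal axis; point, estimate; line, 95% interval) for 21 genes grouped by role (vertical axis). Every interval includes 0, and that of Cyp1a1, from -0.54 to 1.80, is the widest of those drawn.

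Targets of the aryl hydrocarbon receptor were read with particular attention, because tryptophan derivatives are its ligands. Of 15 listed genes 12 were tested, 8 with a positive and 4 with a negative log2 fold change, and 0 were below an unadjusted 0.05. Cyp1a1, the classical target, had 10.9, 6.39, 22.1, 49.3, 2.67, 48.25, 54.2 and 7.73 CPM in tryptophan replicates 1 to 8 and 7.66, 28.3, 14.8, 4.21, 20.9, 10.5, 12.4 and 9.75 CPM in control replicates 1 to 8. Tryptophan replicates 4, 6 and 7 lay above every control, and tryptophan replicate 5 lay below every control. The log2 fold change was 0.63 with a 95% interval from -0.54 to 1.80, and an unadjusted p of 0.298, while edgeR with no filter on low counts called it with an adjusted p of 0.0136, in a range up to 1 over all alternatives. Within the 4 dissection batches it was 0.82, -0.81, -0.03 and 1.78. Without the 4 Fabp6-high libraries it was 1.16, with an unadjusted p of 0.0988. Ahr, the receptor itself, differed by -0.14 (-0.37 to 0.09), and Tiparp, a target that feeds back on the receptor, by 0.04 (-0.19 to 0.26). The receptor binds a GCGTG core, and the bases before the start of Cyp1a1 that hold one are shown from RefSeq (GRCm38.p6, plus strand, chr9:57697511-57697610), with that core in capitals.
Cyp1a1: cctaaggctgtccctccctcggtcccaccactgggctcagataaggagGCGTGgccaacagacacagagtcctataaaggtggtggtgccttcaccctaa
On both strands and over 250 bases before the start, GCGTG occurred in 5 of the 10 tested receptor-list genes with a promoter entry (50%) and in 28.2% of 32841 promoters of the same length. A gene counted if any of its promoters held a match, whereas the 32841 promoters were counted singly, so these shares are unlike measures. Counted by gene in the same way, GCGTG occurred in 6 of 13 genes of MHC class I antigen presentation (46.2%). It occurred in 5 of 22 interferon-stimulated genes (22.7%) and in 0 of 13 T and NK cell genes.

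Amino acid supply is read by the kinase Gcn2 and the factor Atf4, whose targets include amino acid synthesis enzymes and tRNA synthetases, and by mTORC1. Of 21 listed genes of the Atf4 stress response 20 were tested, 4 positive and 16 negative, with a median log2 fold change of -0.11 and 0 below an unadjusted 0.05. Phgdh, the first enzyme of serine synthesis, ran from 5.89 over 8.66 to 10.55 CPM in tryptophan jejuna and from 8.60 over 10.2 to 11.35 CPM in control jejuna, a log2 fold change of -0.28 (-0.60 to 0.04). Atf5, a transcription factor downstream of Atf4, differed by -0.47 (-1.02 to 0.07). In the fit without the 4 libraries 2 of the 20 were lower, Phgdh (-0.41, unadjusted p 0.0426) and Nupr1, a stress-induced nuclear protein (-0.82, unadjusted p 0.0104), and the median was -0.14. Nupr1 is also a member of the Paneth cell list described below. Of all 17341 genes tested in that fit 468 (2.7%) were lower and 260 higher. All 21 cytoplasmic aminoacyl-tRNA synthetases of the list were tested, 14 positive and 7 negative, with a median of 0.06, and of -0.01 without the 4 libraries. Their lowest p belonged to Eprs, which charges glutamate and proline tRNAs and differed by 0.16 (-0.03 to 0.34). Of 20 tested mTORC1 genes 1 was lower at an unadjusted p below 0.05, against 1.52% of all genes, and their median was -0.03. Without the 4 libraries 1 was higher and 0 lower.

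Transcripts of T cells and natural killer (NK) cells had lower values in tryptophan jejuna. Of 21 listed genes 20 were tested, 20 had a negative log2 fold change, and 9 were lower at an unadjusted p below 0.05, against 1.52% of all tested genes, and 0 higher. Their median log2 fold change was -0.56, against -0.003 for all genes, and none was called by edgeR's quasi-likelihood test. With no filter on low counts, where 3.77% of all genes were lower at an unadjusted p below 0.05, edgeR called 3 of them, Gzma (adjusted p 2.64e-25), Gzmb (7.87e-08) and Ccl5 (0.00915). Over all alternatives the adjusted p of each of these 3 reached 1. The fit with no filter had infinite prior degrees of freedom, and a filter of 10 counts over the 38 libraries left 0 genes called. In a bulk tissue fewer cells of a type and less of the RNA per cell cannot be told apart. Summed over the list, the level was 37.7 to 90.8 CPM in tryptophan jejuna and 89.2 to 169 CPM in control jejuna. Only tryptophan replicate 4 reached the control range of this sum, to which abundant members such as Gzma add most. By the mean log2 CPM of the list, only tryptophan replicate 2 (1.31) lay within the control range, 1.08 to 1.75. Tryptophan replicate 4 (1.00) lay below it.

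The invariant chains of the T cell receptor complex mark all T cells. Cd3e, the epsilon chain, had 1.64, 2.15, 2.85, 3.82, 3.08, 2.08, 2.08 and 2.07 CPM in tryptophan replicates 1 to 8 and 3.14, 5.03, 3.39, 3.22, 3.68, 4.05, 3.82 and 4.85 CPM in control replicates 1 to 8. Tryptophan replicate 4 alone lay within the control range. The log2 fold change of Cd3e was -0.69 (SE 0.21), with an unadjusted p of 0.00227 and an adjusted p of 0.999 in edgeR's quasi-likelihood test. Within the 4 dissection batches it was -0.60, -1.04, -0.15 and -0.86. Cd3d, the delta chain, ran from 0.693 over 1.96 to 2.51 CPM in tryptophan jejuna and from 2.31 over 2.95 to 4.60 CPM in control jejuna, with 7 of 8 tryptophan libraries below the lowest control and a log2 fold change of -0.82 (SE 0.26). Cd3g, the gamma chain, differed by -0.58 (SE 0.24). Cd8a, the coreceptor of cytotoxic T cells, ran from 2.295 over 5.39 to 7.16 CPM in tryptophan jejuna and from 5.17 over 7.58 to 8.77 CPM in control jejuna, with a log2 fold change of -0.64 (SE 0.30). All 8 tryptophan libraries lay below the control median of Cd8a, whose unadjusted p was 0.0393. Cd4, the coreceptor of helper T cells, which macrophages also carry, differed by -0.36 (-0.997 to 0.29), and Trdc, the constant gene of gamma delta T cells, by -0.19 (-0.63 to 0.24).

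With all 16 libraries the granzyme genes had the largest differences of the list. Gzma, granzyme A (chr13:113093825-113100981 in GRCm38), had 5.32, 23.5, 11.35, 40.95, 33.1, 15.7, 28.8 and 12.8 CPM in tryptophan replicates 1 to 8 and 32.4, 93.9, 72.7, 34.6, 33.2, 57.0, 66.7 and 49.7 CPM in control replicates 1 to 8. Of the 8 tryptophan libraries 6 lay below every control, and all 8 below the control median. The log2 fold change was -1.43 (SE 0.44), with an unadjusted p of 0.00315, and within the 4 dissection batches it was -1.33, -2.29, -1.37 and -1.03. Gzmb, granzyme B, ran from 1.60 over 4.42 to 8.08 CPM in tryptophan jejuna and from 5.38 over 8.45 to 16.8 CPM in control jejuna, a log2 fold change of -1.23 (SE 0.40). Nkg7, a granule membrane protein, ran from 0.653 over 1.29 to 1.72 CPM in tryptophan jejuna and from 1.69 over 1.99 to 2.96 CPM in control jejuna, with a log2 fold change of -0.78 (SE 0.25). Klrd1, the CD94 receptor of NK and some cytotoxic T cells, differed by -0.80 (SE 0.26), and the chemokine gene Ccl5 by -1.02 (SE 0.38). Itgae, the CD103 integrin that holds lymphocytes in the epithelium, was added after its values were seen and differed by -0.45 (95% interval -0.83 to -0.07), and by -0.31 without the 4 Fabp6-high libraries, with an unadjusted p of 0.179.

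**Figure D3:**
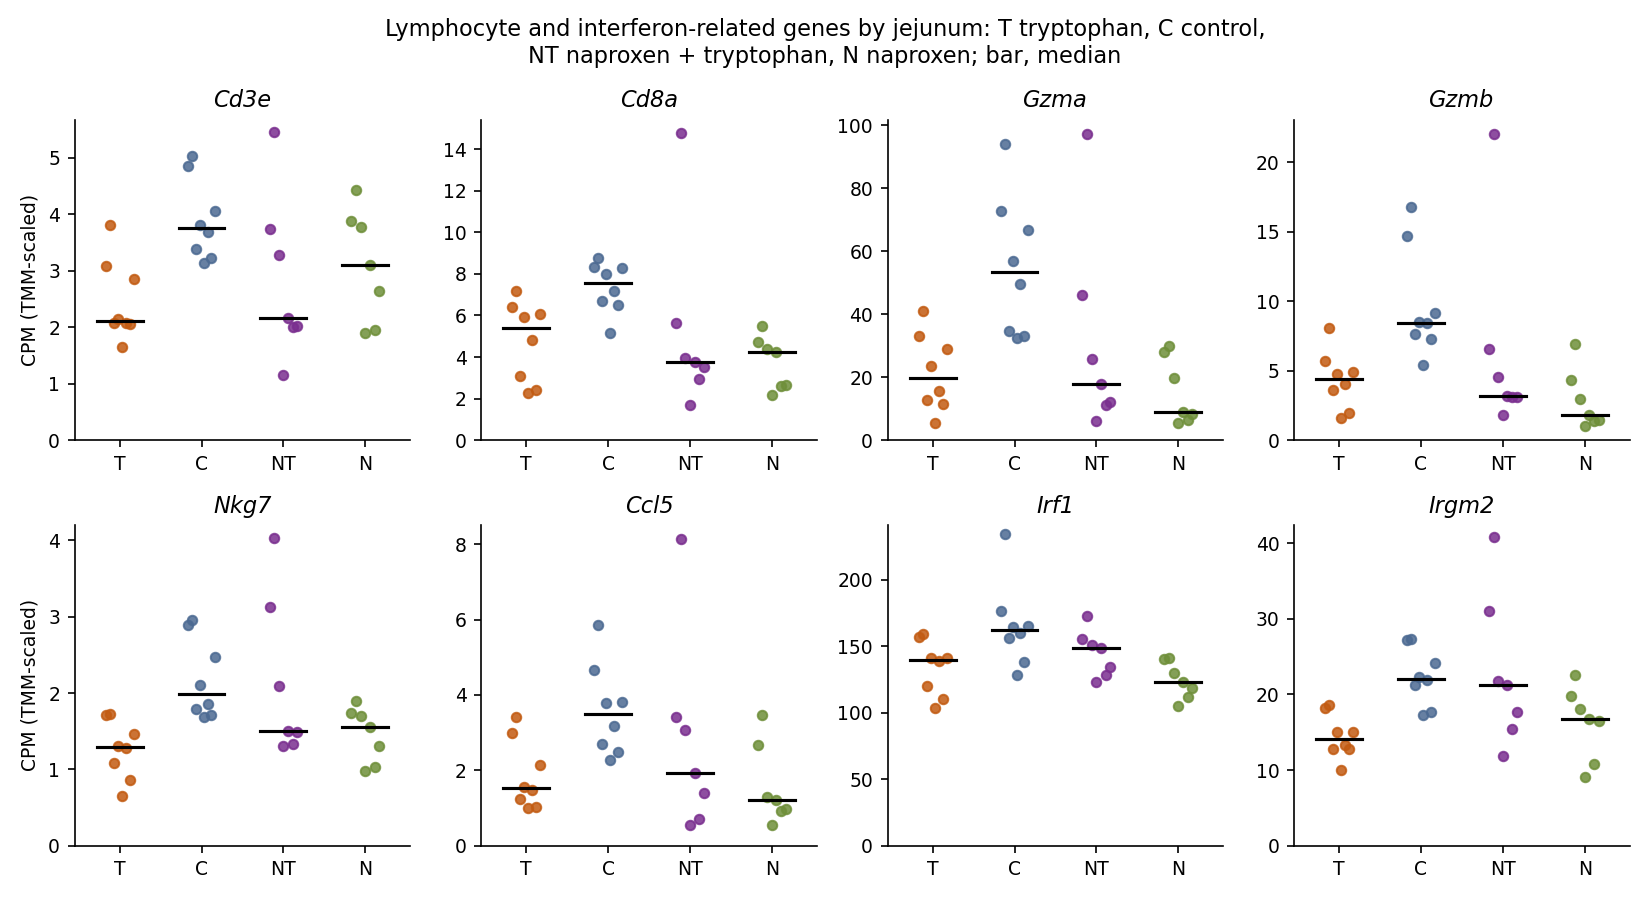
CPM (vertical axes, from 0) of 6 T and NK cell genes and 2 interferon-related genes in jejuna of mice given tryptophan (T, 8), control (C, 8), naproxen plus tryptophan (NT, 7) and naproxen (N, 7); points are libraries and bars group medians. Tryptophan libraries lie mostly below the control libraries, whereas 1 naproxen plus tryptophan library, replicate 5, stands above its group in most panels.

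The same values were computed without the libraries that held distal transcripts. Without the 4 Fabp6-high libraries all 20 tested T and NK cell genes again had a negative log2 fold change, with a median of -0.86 and 11 lower at an unadjusted p below 0.05, against 468 (2.7%) of all 17341 genes then tested. Cd3e stood at -0.62, Gzma at -1.28 and Gzmb at -1.16 on the log2 scale. The largest differences were then those of Cd8b1, the other CD8 chain, at -2.10 (against -0.38 with all libraries), and of Klrk1, an activating receptor of NK and cytotoxic T cells, at -1.46 (against -0.54). Cd8a stood at -0.57 and Ccl5 at -0.91, with unadjusted p of 0.127 and 0.0664. The 18 tested genes of the B cell list had a median of 0.16 with all libraries, and of -2.18 with 13 lower without the 4, where control replicates 5 and 7 held the most B cell transcripts. With all 16 libraries some of the other non-epithelial lists leaned to negative values and some did not. Negative were 18 of 19 fibroblast and matrix genes (median -0.34), 15 of 16 endothelial genes (median -0.31) and 17 of 18 macrophage and dendritic cell genes (median -0.34). Positive were 12 of 15 smooth muscle genes (median 0.07), 4 of 5 genes of the interstitial cells of Cajal (median 0.04) and 8 of 11 mesenteric adipocyte genes (median 0.09), while 7 of 16 genes of enteric neurons and glia were positive (median -0.03). Without the 4 libraries 3 of 11 adipocyte genes were positive (median -0.51). Of 16 neuron and glia genes 13 were then positive (median 0.15). Of these 16, 1 was higher at an unadjusted p below 0.05, as were 260 of all 17341 genes, against 0 with all libraries. Fibroblast, endothelial and macrophage medians were then -0.34, -0.31 and -0.46, and those of smooth muscle and Cajal cells 0.06 and 0.02. With all 16 libraries and the mean level of the fibroblast list as a covariate the T and NK cell median was -0.49. The 9 members lower at an unadjusted p below 0.05 were the same 9. For MHC class II, described next, that covariate gave a median of -0.24 in place of -0.45 and 0 members lower in place of 2. The part of tissue composition in the lower lymphocyte level was not tested.

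Genes that respond to interferon and genes of antigen presentation had lower values as well, by smaller amounts. Of 29 interferon-stimulated genes 22 were negative (median -0.18, 3 lower at an unadjusted p below 0.05), of 15 MHC class I genes 14 were negative (median -0.20, 3 lower), and of 11 MHC class II genes 11 were negative (median -0.45, 2 lower), with 0 higher in each list, against 1.52% of all genes lower and 1.13% higher. These counts turned on single libraries. With 1 library left out, the count of interferon-stimulated genes lower ran from 1 (without control replicate 1, 3 or 7, or tryptophan replicate 1, 3 or 6) to 6 and 7 (without control replicate 8 and tryptophan replicate 8), and their median from -0.24 to -0.07. The count for MHC class I ran from 1 (without control replicate 2 or 3, or tryptophan replicate 3) to 5 (without tryptophan replicate 2). That for MHC class II ran from 0 (without control replicate 1, 5 or 7, or tryptophan replicate 1, 3, 6 or 7) over 1 (without control replicate 4 or 6, or tryptophan replicate 2) to 4 (without tryptophan replicate 8), and it was 0 with no dissection batch in the model. Without the 4 Fabp6-high libraries the counts lower were 2, 0 and 3, against 468 (2.7%) of all 17341 genes then tested, and the medians -0.11, -0.18 and -0.69. Cxcl10, a chemokine that draws T cells, ran from 0.866 over 2.13 to 3.53 CPM in tryptophan jejuna and from 1.49 over 3.46 to 7.03 CPM in control jejuna, with a log2 fold change of -0.87 (SE 0.30), and its difference was 0.39 in the first dissection batch and -0.45, -1.31 and -1.93 in the others. Irf1, a transcription factor induced by interferon gamma, ran from 103 over 140.1 to 159 CPM in tryptophan jejuna and from 129 over 162.5 to 235 CPM in control jejuna. All 8 tryptophan libraries lay below the control median of Irf1, and its log2 fold change was -0.31 (SE 0.10) with an unadjusted p of 0.00537. Irgm2, a GTPase of cell-autonomous defence, ran from 10.05 over 14.15 to 18.6 CPM in tryptophan jejuna and from 17.3 over 22.1 to 27.4 CPM in control jejuna, with 6 of 8 tryptophan libraries below every control and a log2 fold change of -0.62 (SE 0.21). With DESeq2 on the 16 jejuna alone Irgm2 was called with an adjusted p of 0.0197, while over all alternatives its adjusted p ran from 0.00146, in edgeR with no filter on low counts, to 1. Serpina3g, a serine protease inhibitor, differed by -0.77 (SE 0.27), the immunoproteasome subunits Psmb8 and Psmb9 by -0.43 and -0.44 (-0.33 and -0.36 without the 4 libraries, with unadjusted p of 0.146 and 0.102), and the class II gene H2-Ab1 by -0.60.

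Interferon regulatory factors bind sites of the form GAAANNGAAA. The 100 bases that hold such a match before the start of Irgm2 and of Cxcl10 are shown from RefSeq (GRCm38.p6), read in the direction of transcription, with matches in capitals. Irgm2 lies on the plus strand (chr11:58214868-58214967) and Cxcl10 on the minus strand (chr5:92349040-92349139).
Irgm2: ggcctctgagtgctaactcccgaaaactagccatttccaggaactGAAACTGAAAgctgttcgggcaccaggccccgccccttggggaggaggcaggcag
Cxcl10: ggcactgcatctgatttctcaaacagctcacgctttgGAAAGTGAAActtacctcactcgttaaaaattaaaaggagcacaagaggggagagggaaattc
Searched on both strands over 250 bases before the start, GAAANNGAAA occurred in 12 of 22 tested interferon-stimulated genes with an entry (54.5%), in 1 of 13 T and NK cell genes (7.69%) and in 2.98% of 32841 promoters. Here too genes counted by any of their promoters, and the 32841 promoters singly.

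**Figure D4:**
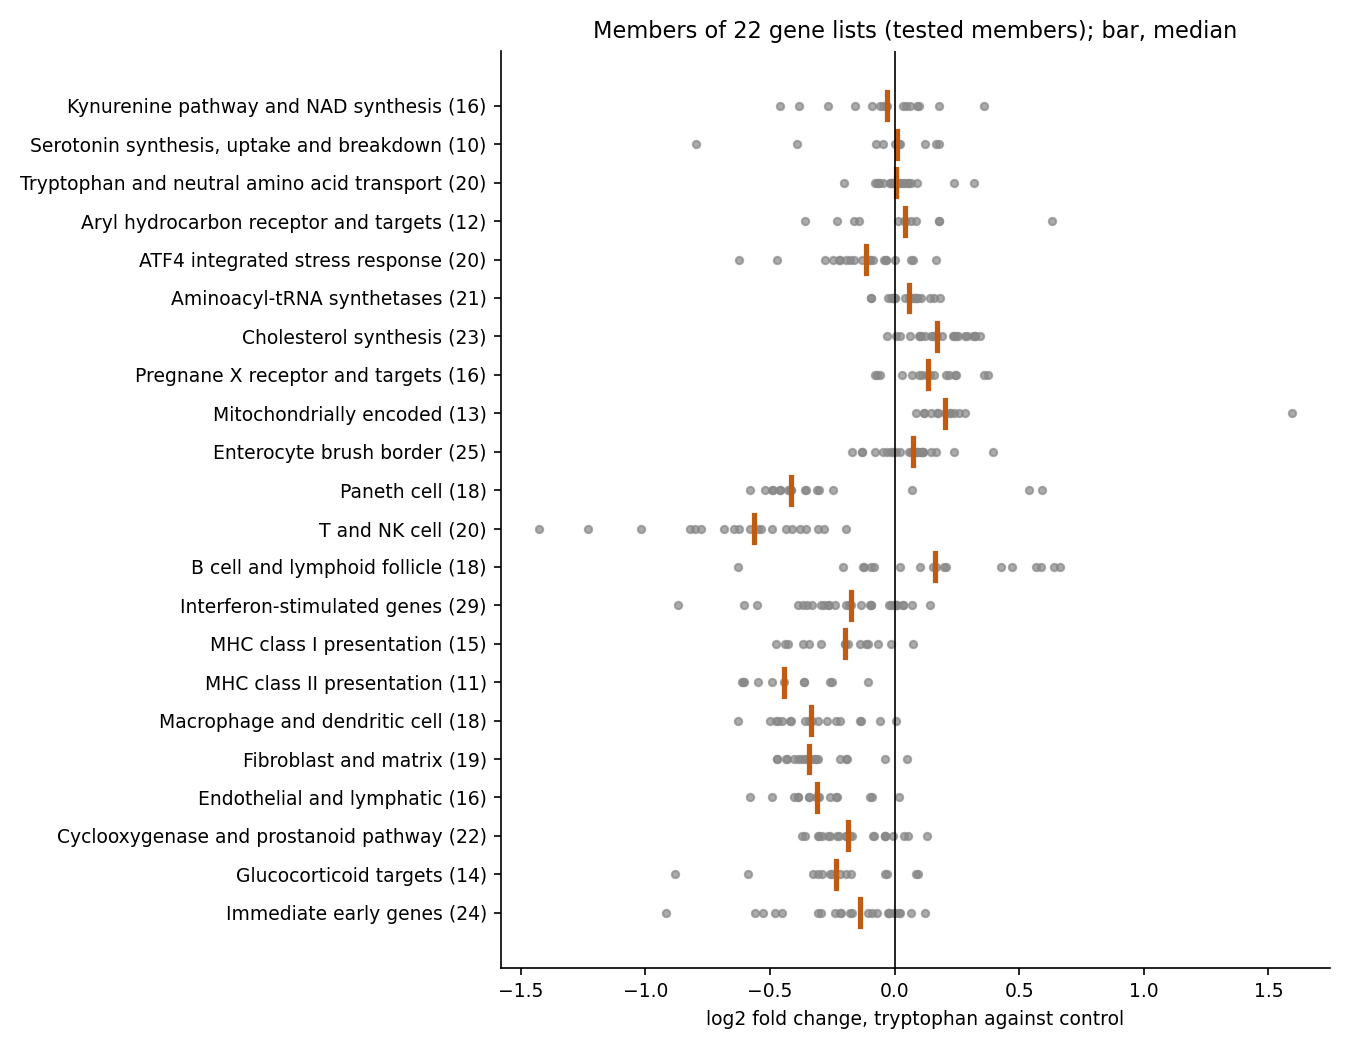
Log2 fold change of tryptophan against control (horizontal axis) for the tested members of 22 gene lists (vertical axis, number tested in brackets); points are genes and bars list medians. The T and NK cell members all lie below 0 with a median of -0.56, while the kynurenine, serotonin and transport lists centre near 0.

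Paneth cells, which secrete defensins and lysozyme at the crypt base, were represented unevenly. Of 18 tested Paneth cell genes 15 were negative, with a median of -0.42 and 0 below an unadjusted 0.05. The median ran from -0.64 without tryptophan replicate 8 to -0.17 without tryptophan replicate 6, and was -0.24 with the fibroblast covariate. The count lower was 3 with voom (1.51% of all genes), 11 with edgeR and no filter on low counts (3.77%), 11 with voom and quality weights (8.71%), and 13 with quality weights on the 16 jejuna alone (11.9%). Their summed level was 4420 to 28935 CPM in tryptophan jejuna, where replicates 3, 4 and 6 were lowest, and 6957 to 25289 CPM in control jejuna, where replicate 8 was lowest. Without the 4 Fabp6-high libraries all 18 were negative, with a median of -0.92 and 10 lower at an unadjusted p below 0.05, against 2.7% of all genes. Itln1, an intestinal lectin, then stood at -0.86 on the log2 scale (unadjusted p 0.022), against -0.43 with all libraries (0.173), and Mmp7, the protease that activates defensins, at -0.84 (0.0381) against -0.46 (0.164). Near-identical defensin copies may have shared reads, so single defensins are not given.

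Metabolic lists leaned the other way by small amounts. Of 23 cholesterol synthesis genes 22 were positive, with a median of 0.17 and 0 below an unadjusted 0.05. Hsd17b7, one of its late enzymes, had the lowest p and differed by 0.32 (95% interval -0.07 to 0.71). Without the 4 Fabp6-high libraries 12 of 23 were positive and the median was 0.01. Of 16 genes of the pregnane X receptor, a nuclear receptor for foreign compounds and for some bacterial indoles, 13 were positive (median 0.13), and without the 4 libraries 16 of 16 (median 0.29). Abcc3, an efflux transporter of conjugates, differed by 0.25 (-0.04 to 0.53), and without the 4 libraries by 0.41 with an unadjusted p of 0.0173, the 1 gene of the list then below 0.05. Of all 17341 genes then tested 260 were higher at that threshold. All 13 mitochondrially encoded genes were positive (median 0.20, 0 below an unadjusted 0.05). The farthest, mt-Nd4l at 1.59 on the log2 scale, was at 0 in at least 1 library of each group and had an interval from -0.63 to 3.82. Their share of counts averaged 6.46% ± 1.39 in tryptophan jejuna and 5.88% ± 1.28 in control jejuna (SD), a difference with an exact permutation p of 0.4105 (n = 8 each).

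Most prostaglandin, glucocorticoid and immediate early genes had negative values, and heat shock chaperones did not. Of 22 tested genes of the cyclooxygenase and prostanoid pathway 19 were negative (median -0.19) and 0 were below an unadjusted 0.05. Ptgs1, the constitutive cyclooxygenase, differed by -0.30 (-0.80 to 0.20), and Ptgs2, the inducible one, by -0.26 (-1.03 to 0.52). Of 14 glucocorticoid targets 12 were negative (median -0.23) and 3 were lower at an unadjusted p below 0.05, against 1.52% of all genes, namely the metallothioneins Mt1 (-0.59) and Mt2 (-0.88) and the NF-kappaB inhibitor Nfkbia (-0.29). Leaving out the 4 Fabp6-high libraries, 0 of the 14 were lower and the median was -0.17, with Mt1 at -0.57 (unadjusted p 0.117), Mt2 at -0.85 (0.0843) and Nfkbia at -0.20 (0.245). Tryptophan replicate 3 had the highest Mt1 of all 16 libraries, 76.5 CPM, against 13.9 to 29.4 CPM in the other tryptophan jejuna and 17.45 to 61.3 CPM in the control jejuna. Of 24 immediate early genes 19 were negative (median -0.14) and 2 were lower, Egr1 (-0.53) and Egr2 (-0.92). Of 16 heat shock chaperones 11 were positive (median 0.02), and 4 without the 4 libraries (median -0.10), with 0 below an unadjusted 0.05 either way.

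Outside these lists the smallest p, with predicted genes and immunoglobulin segments set aside, belonged to Tmem25, a membrane protein gene of the immunoglobulin superfamily. It had 3.33, 3.44, 4.99, 3.82, 3.83, 4.85, 4.225 and 4.09 CPM in tryptophan replicates 1 to 8 and 2.52, 2.60, 3.13, 2.23, 2.29, 2.23, 3.08 and 3.36 CPM in control replicates 1 to 8. Only control replicate 8 reached the tryptophan range. The log2 fold change was 0.61 (SE 0.17), with an unadjusted p of 0.00119. It was positive in all 4 dissection batches, as it was for 5.46% of all genes, while 4.55% were negative in all 4. Map1lc3b, which coats autophagosomes, ran from 71.9 over 86.6 to 94.5 CPM in tryptophan jejuna and from 87.8 over 102 to 121 CPM in control jejuna, a log2 fold change of -0.26 (SE 0.08). Zfp811, a zinc finger gene, differed by -0.66 (SE 0.19), and Cd200r4, a receptor of myeloid cells, by -0.79 (SE 0.26).

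The same injection was also given to mice on naproxen chow, in other animals of the same experiment. Naproxen plus tryptophan against naproxen gave 0 called genes of 17185 (0%) and 629 (3.66%) below an unadjusted 0.05. Of the 20 tested T and NK cell genes 12 were positive, with a median of 0.12, 1 higher and 0 lower at an unadjusted p below 0.05, against 1.52% higher and 2.14% lower among all genes. Gzma averaged 30.9 CPM with naproxen plus tryptophan and 15.2 CPM with naproxen, a log2 fold change of 0.88 (SE 0.47). Gzmb averaged 6.33 and 2.84 CPM in these 2 groups, a log2 fold change of 0.99 (SE 0.43). Replicate 5 of the naproxen plus tryptophan group held 97.2 CPM of Gzma and 22.03 CPM of Gzmb, the highest of its group. Without it the log2 fold change of Gzma was 0.34 and that of Gzmb 0.44, and 6 of the 20 genes were positive with a median of -0.23. The B cell list was lower there, with 15 of 18 genes below an unadjusted 0.05 and a median of -2.02. Its part in the other values was not tested. The mitochondrial share was 12.04% in naproxen plus tryptophan replicate 7 and 12.5% and 12.14% in naproxen replicates 6 and 7. In tryptophan and control jejuna it was at most 8.582%. The most abundant gene held most in naproxen replicate 4 (21.97%) and naproxen plus tryptophan replicate 7 (20.63%). The part of these libraries in the list values was not tested.

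The difference between the 2 tryptophan effects was tested gene by gene, as the effect on naproxen chow minus the effect on normal chow, which share no samples. Of 17185 genes 0 were called (0%), the lowest adjusted p was 0.772, and 584 (3.40%) were below an unadjusted 0.05, 245 of them higher (1.43%) and 339 lower (1.97%). Of the 20 T and NK cell genes 7 were higher at an unadjusted p below 0.05 and 0 lower, and their median difference was 0.60. The list's mean log2 CPM was 0.79 (SD 0.45) in tryptophan jejuna and 1.45 (SD 0.27) in control jejuna. It was 0.90 (SD 0.70) with naproxen plus tryptophan and 0.86 (SD 0.205) with naproxen. Control jejuna thus stood highest, and naproxen jejuna, which had no tryptophan, lay near the tryptophan jejuna. The difference was 2.30 on the log2 scale for Gzma (unadjusted p 0.00136) and 2.22 for Gzmb (unadjusted p 0.000739). Without replicate 5 of the naproxen plus tryptophan group these were 1.74 and 1.61, 5 of the 20 genes were higher, and the median difference was 0.33. The 4 Fabp6-high libraries were picked among tryptophan and control jejuna alone, and no naproxen jejunum was left out with them. Yet the summed level of the distal markers was 3399 and 6473 CPM in naproxen plus tryptophan replicates 1 and 2. It was 8018, 6598 and 3549 CPM in naproxen replicates 1, 6 and 7, and 357 to 1441 CPM in the others of these 2 groups. With those 4 left out Gzma stood at 2.16 and Gzmb at 2.15, 9 of the 20 were higher, and the median difference was 0.94. Of all 17341 genes then tested 313 were higher and 281 lower. Of 29 interferon-stimulated genes 6 were higher and 0 lower, and of 15 MHC class I genes 6 were higher and 0 lower. Without replicate 5 these were 2 higher with 1 lower, and 5 higher with 0 lower, and without the 4 Fabp6-high libraries 5 and 4 higher with 0 lower. Ifi47, an interferon-inducible GTPase, differed by 0.96 (SE 0.26) and Irgm2 by 1.13 (SE 0.31). Tmem25 went the other way, with a difference of -1.06 (SE 0.25, unadjusted p 0.000167), as it averaged 2.54 CPM with naproxen plus tryptophan and 3.49 CPM with naproxen. Rbbp9, a serine hydrolase gene, differed by 0.42 (SE 0.10). These lists were chosen with the values on normal chow known.

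**Figure D5:**
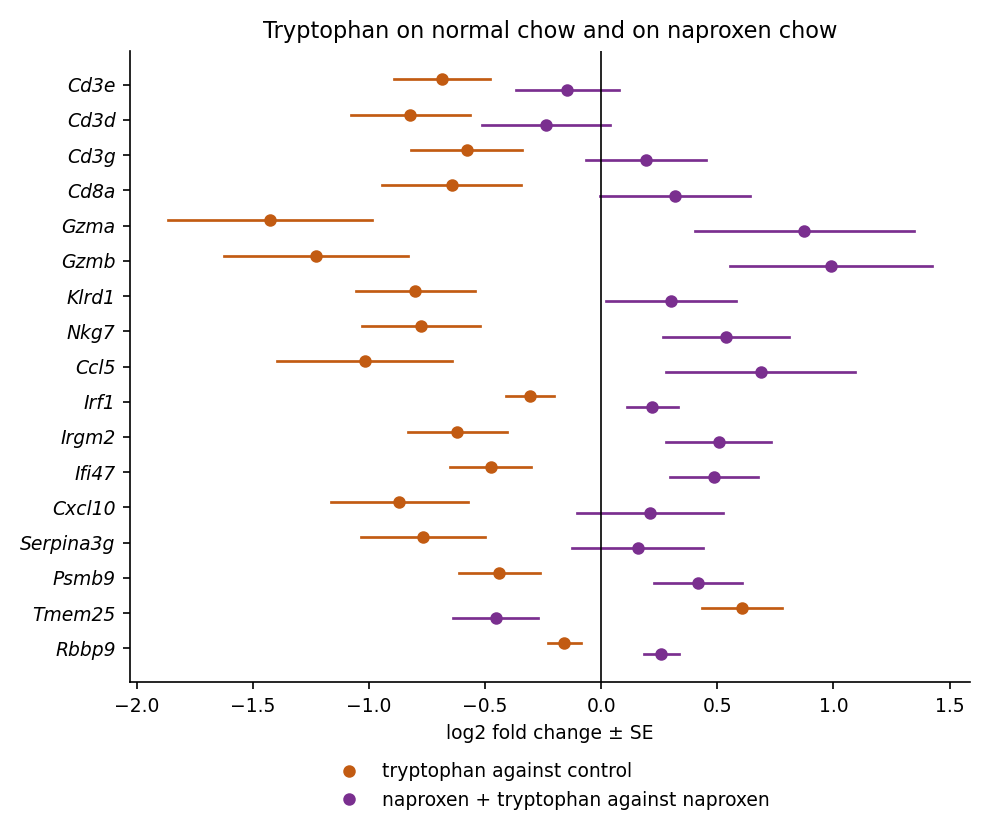
Log2 fold change (horizontal axis; point, estimate; line, ± 1 SE) of 17 genes (vertical axis) for tryptophan against control and for naproxen plus tryptophan against naproxen. For Gzma the estimates are -1.43 and 0.88, and for Tmem25 they are 0.61 and -0.45.

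In hearts of the separate cohort tryptophan against control likewise gave 0 called genes of 15805 (0%), with 459 (2.90%) below an unadjusted 0.05. Of the T and NK cell genes 9 were tested in the heart, and 8 of them were positive with a median of 0.24 and 2 were higher at an unadjusted p below 0.05, against 1.63% higher and 1.28% lower among all genes. The 29 interferon-stimulated genes had a median of 0.09 and the 12 aryl hydrocarbon receptor genes one of 0.02. Heart libraries were made with another kit, so the difference between tissues was not tested.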

How the data were processed

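Poly-A selected hearts and ribosome-depleted jejuna were sequenced, and the deposited values were estimated counts per gene that the authors made with Salmon 1.9.0 and R 4.2.2 against GRCm38, per the submitters' processing notes. Of the deposited jejunum values 24.08% were not whole, and they were rounded here. The table held 51368 genes, and 17185 passed edgeR's filterByExpr (minimum count 10). Counts were scaled by the TMM method and tested with edgeR 4.0.16 (R 4.3.3, robust quasi-likelihood F test) on all 38 jejuna of the experiment. The terms were the 5 groups, with the 8 celecoxib jejuna as the fifth, and the dissection batch. Genes were called at a Benjamini-Hochberg adjusted p of 0.05 over all tested genes. Intervals are Wald intervals at 95%, and CPM were taken from the scaled library. The depths of the 16 jejuna are given with the results. Hearts were fitted apart. Scripts were tested on simulated data.

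The libraries, genes and lists were chosen with earlier results of these data known. Genes named were those with the smallest p once predicted genes and antigen receptor segments were set aside, the 2 members of smallest p in each of the 47 lists, and 15 tested of the tryptophan, serotonin and prostaglandin genes fixed by name, of which not all picks by p are described. Others were added after their values were seen. Alternatives were DESeq2 1.42.0, voom in limma 3.58.1, other scaling, filters, batch terms and samples. Those without the 4 Fabp6-high jejuna, with a fibroblast covariate, with only the 16 jejuna under DESeq2 or voom, and with 10 counts over the 38 libraries were chosen after seeing the data. Promoter sequences are from RefSeq (GRCm38.p6).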

Additional observations from a re-analysis of the deposited data

Results flagged for a closer look

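Genes were looked at on the log2(CPM + 0.1) scale and lists by their mean log2 CPM. Of 154 sets of 8 libraries, 14 had a highest or lowest library far from the other 7 by Dixon's test, which chance gives in about 1 in 20 sets. Among controls, replicate 1 stood high in Fabp6 (2556 CPM), Ahr (40.4 CPM), Ptgs1 (150.3 CPM) and Itgae (28.5 CPM). Control replicate 8 stood low in Kmo (1.54 CPM), Serpina3g (4.02 CPM), Mmp7 (54.6 CPM) and the Paneth cell list (mean log2 CPM of 6.94). Control replicate 3 stood high in Ido1 (40.2 CPM), control replicate 7 in Klrd1 (4.26 CPM) and control replicate 5 in the B cell list (mean log2 CPM of 3.55). Among tryptophan jejuna, replicate 3 stood low in Tiparp (40.4 CPM) and high in Mt1 (76.5 CPM), and replicate 8 stood high in Fut2 (1.53 CPM).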

How the results depend on the processing

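The count of genes called for tryptophan against control was 0 with DESeq2, voom, voom with quality weights (2378 genes below an unadjusted 0.05), RLE scaling, a minimum count of 50, no dissection batch, the 16 jejuna alone in edgeR, the fibroblast covariate, and without the 4 Fabp6-high jejuna. It was 5 with DESeq2 on the 16 jejuna alone (Irgm2, Ighv5-4, Igkv6-23, Igkv19-93 and Rnu3b3), and 0 to 1 with single libraries left out, where the 1 was Ighv1-47 without tryptophan replicate 4. With no filter on low counts it was 253, for naproxen plus tryptophan against naproxen 333, and for the difference of both effects 319. Of the genes named it then called Gzma, Gzmb, Ccl5, Irgm2, Cxcl10, Serpina3g, Psmb9, H2-Ab1, Ifi47, Mt1, Mt2, Mmp7, Cyp1a1, Fabp6 and mt-Nd4l for tryptophan against control. There edgeR's prior degrees of freedom were infinite, and with a filter of 10 counts over the 38 libraries all 3 counts were 0. DESeq2 called 10 genes for naproxen plus tryptophan against naproxen and 2 for the difference. Leaving out single libraries gave 0 to 1 for naproxen plus tryptophan against naproxen (Ighv1-76 without replicate 6 of naproxen plus tryptophan) and 0 to 0 for the difference. With the replicate number as a block all 3 counts were 0 (424, 618 and 532 genes below an unadjusted 0.05). Same-numbered libraries correlated between -0.534 and 0.058, so the numbers were not taken as a pairing.

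The T and NK cell median lay between -0.67 and -0.44 with single libraries left out and between -0.86 and -0.49 elsewhere, with 7 to 10 and 8 to 14 members lower. Of 1914 values of 64 genes over the alternatives, 31 had the other sign, and the cause was not tested. The B cell median was -2.18 without the 4 jejuna, -0.0757 with DESeq2 on the 16 alone and -0.17 to 0.86 with single libraries left out. Voom with quality weights gave -0.0163 for Tph1, 0.0719 for Slc6a4, 0.14 for Maoa and 0.10 for Slc6a19, and on the 16 jejuna alone 0.0236 for Slc6a4, 0.0672 for Maoa and 0.0739 for Slc6a19. The fibroblast covariate gave -0.0231 for Tph1, -0.0184 for Ddc, 0.0113 for Slc7a5 and 0.0853 for Ptgs2. Tiparp was -0.0015 without the 4 jejuna. With single libraries left out Tph1 ran from -0.13 to 0.19, Slc6a4 from -0.15 to 0.013, Maoa from -0.155 to 0.047, Slc6a19 from -0.14 to 0.0451, Slc7a5 from -0.15 to 0.0173, Tiparp from -0.0113 to 0.11, Cd79a from -0.91 to 0.15 and Fabp6 from -0.0943 to 3.28. At 1 to 10 CPM the median standard error was 0.23, which limits low genes.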
